A study of Mus musculus with 7 samples.

Results

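This account covers 39 genes for enzymes of glycolysis, the pentose phosphate pathway and the tricarboxylic acid (TCA) cycle in mouse haematopoietic stem and progenitor cells (HSPCs). The genes were chosen by symbol, and all 39 were found among the 34305 rows of the deposited count table. Of these, 38 had enough counts to enter the test, and the pyruvate dehydrogenase kinase gene Pdk4 did not. The cells were isolated mouse HSPCs, which form the blood cell lineages. The labels give no strain, age or number of donor animals. Cells of the MN1 group (3 libraries) overexpressed MN1, a transcriptional co-regulator and oncogene of acute myeloid leukaemia, and cells of the MN1pQdel group (3 libraries) overexpressed MN1-∆pQ, the form without its polyglutamine stretch. The labels describe transduction with each plasmid and a sort, and name no promoter. The noTD group (1 library) is untransduced by its title and by the series text, although its source name is the same as that of the transduced cells. The growth medium of every group held fetal bovine serum and murine stem cell factor, IL-6 and IL-3. Poly(A) RNA was taken after 7 to 9 days of culture, with no day given per library. The series text calls the transduced samples independent and does not say that they came from separate animals, so each p-value reflects only the variation among these libraries, which may be technical.

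Glycolysis turns glucose into pyruvate, and lactate dehydrogenase converts pyruvate to lactate. The pentose phosphate pathway branches off after the first glycolytic step. Its oxidative arm makes NADPH, which phagocytes use for the oxidative burst, and its non-oxidative arm interconverts sugars. Pyruvate enters the TCA cycle through the pyruvate dehydrogenase complex, which the PDK kinases switch off. Several steps have several isoenzymes, so a cell can change the make-up of a step without changing its total. Stem cells of the marrow are known for glycolytic metabolism with high PDK activity, and mature neutrophils also rely largely on glycolysis.

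Totals ran from 38210660 to 67728658 counts per library. Levels are given in CPM, a gene's count relative to the library total after scaling by trimmed means (TMM). Mn1 itself stood at 33.6 CPM in noTD, at 287 to 314 CPM in MN1 and at 404 to 728 CPM in MN1pQdel, so the amount of Mn1 RNA and the loss of the polyglutamine stretch cannot be told apart. The labelled cell type was checked on 8 stem and progenitor markers. Their summed level was 1472 to 1800 CPM in MN1 and 762 to 1249 CPM in MN1pQdel and 1218 CPM in noTD, and 3 of the 8 were higher in MN1 than in MN1pQdel. Their part in the results was not tested. Neutrophil markers were also abundant. The 11 neutrophil markers summed to 4306 to 7894 CPM in MN1, 26523 to 36844 CPM in MN1pQdel and 38353 CPM in noTD, none was at 0, and all 11 were lower in MN1 (edgeR adjusted p under 0.05). MN1pQdel replicate 2 stood apart from its group, with 9 mast cell markers at 2672 CPM in sum against 14089.0 and 16606 CPM, and 7 eosinophil markers at 234 CPM against 3391 and 3631 CPM. In MN1 these sums were 1416 to 3476 CPM and 12.5 to 19.6 CPM, and 5 of 9 mast cell, 7 of 7 eosinophil, 4 of 5 basophil, 6 of 10 monocyte and macrophage and 1 of 6 erythroid markers were lower there. Of 5 megakaryocyte markers 0 passed with edgeR, and 1 was lower with DESeq2 and at an unadjusted p under 0.05. Of 5 B lymphoid markers 2 had enough counts to test, and 0 were lower in MN1. Ebf1 was higher (mean 2.08 CPM, against 0.246 CPM in MN1pQdel, edgeR adjusted p = 0.00554).

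Between MN1 and MN1pQdel 6 of the 38 tested enzyme genes changed. In MN1 5 were lower, G6pdx, Pgd and Taldo1 of the pentose phosphate pathway, the glycolysis regulator Pfkfb4 and the hexokinase Hk3, and 1 was higher, the phosphofructokinase Pfkm. The 6 calls were 15.8% of the 38 members tested, near the 17.2% of all 14808 genes tested (quasi-likelihood test of edgeR, p adjusted by Benjamini-Hochberg, threshold 0.05). By direction, 13.2% of members were lower against 11.1% of all genes, and 2.63% were higher against 6.08%. The number of calls is therefore not a result about these genes. The members' median log2 fold change (MN1 over MN1pQdel) was 0.0186, against -0.0105 for all genes. At an unadjusted p under 0.05 the count was 15. The share of all genes at an unadjusted p under 0.05 was not counted. This and the other unadjusted counts given here are therefore not results about these genes. In 17 members the fold change was smaller than 0.25 on the log2 scale. The groups did not overlap in 22 members (57.9%, against 43.6% of all genes), 11 with MN1 above and 11 with MN1 below (all genes: 21.9% and 21.7%). With the replicate number added as a block, since same-numbered libraries deviated together, the fit called 5 members higher and 8 lower (all genes: 30.7% called, 13.7% higher and 17.0% lower), and the 6 calls above were among them. Without MN1pQdel replicate 2 the counts were 9 higher and 7 lower (all genes: 41.9%, 20.7% higher and 21.2% lower), again with all 6. DESeq2 called 4 higher and 6 lower (all genes: 24.6%, 10.8% higher and 13.8% lower), and edgeR called 5 and 4 with library totals alone (all genes: 20.2%, 12.5% higher and 7.70% lower) and 10 and 6 without the replicate 2 pair (all genes: 34.3%, 17.1% higher and 17.2% lower).

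**Figure D1:**
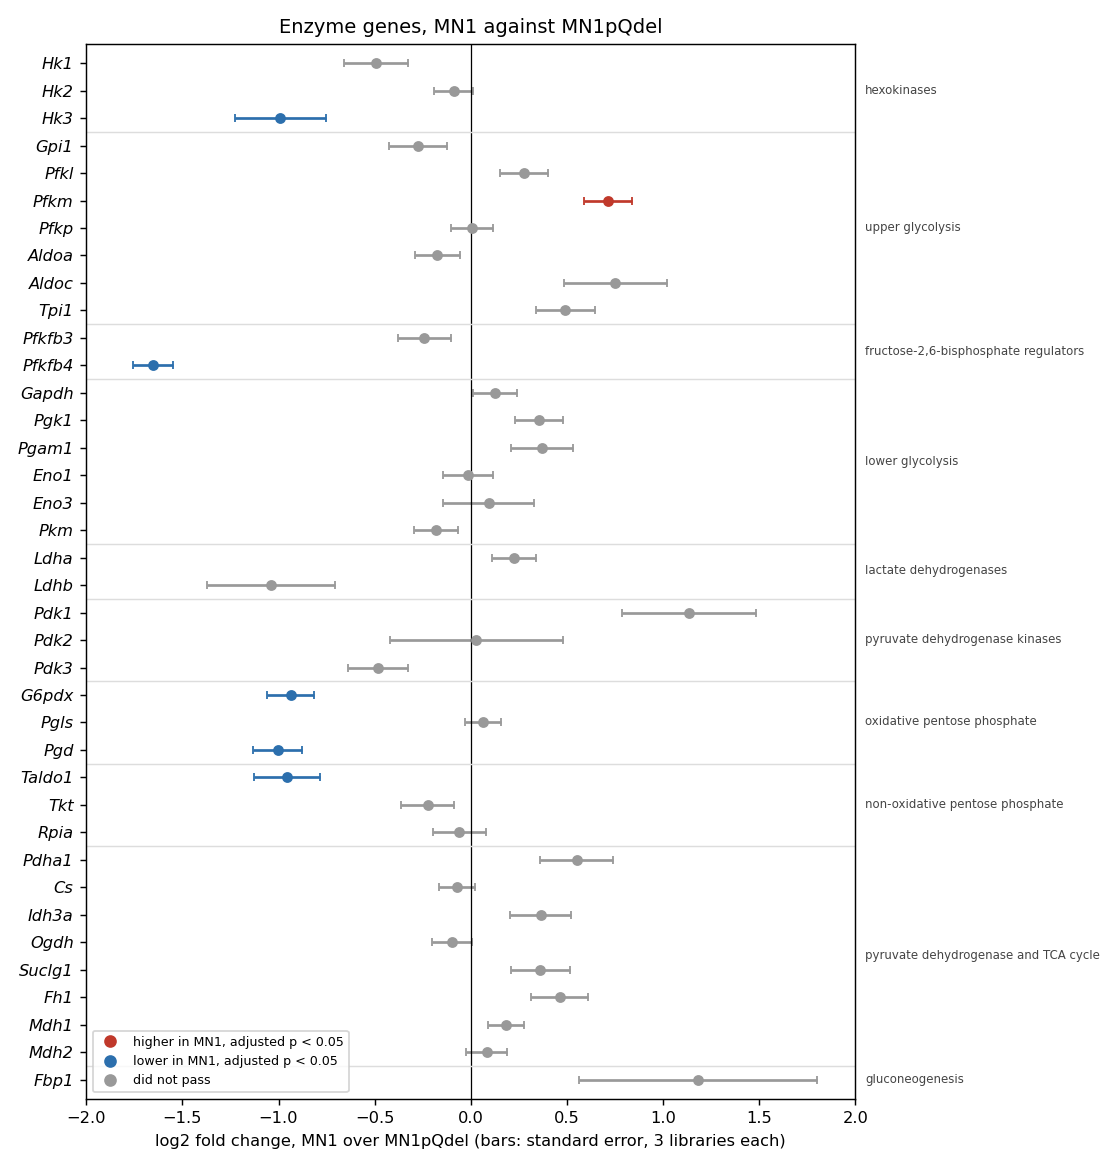
Log2 fold change of MN1 over MN1pQdel (x axis) for the 38 tested enzyme genes (y axis), grouped by role, with the standard error of the edgeR fit as bars (3 libraries per group). Pfkfb4 lies lowest at -1.65, with G6pdx, Pgd, Taldo1 and Hk3 from -1.005 to -0.94, and Pfkm is the red point at 0.71.

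Both NADPH-producing dehydrogenases of the oxidative pentose phosphate arm were lower in MN1. G6pdx (chromosome X, 74409483 to 74429194, minus strand, GRCm38, protein coding) encodes glucose-6-phosphate dehydrogenase, the entry enzyme. It stood at 236, 245 and 204 CPM in MN1 replicates 1 to 3, at 429.9, 468 and 406 CPM in MN1pQdel and at 428 CPM in noTD. The 3 MN1 libraries lay far below all others, and noTD lay inside the MN1pQdel range. The log2 fold change was -0.94 (SE 0.12), with an edgeR adjusted p of 0.00704. Pgd (chromosome 4, 149149991 to 149166771, minus strand), the 6-phosphogluconate dehydrogenase gene, stood at 429, 463 and 381 CPM in MN1, 890.4, 887 and 756 CPM in MN1pQdel and 839.7 CPM in noTD. It showed the same order of groups, without overlap. Its log2 fold change was -1.005 (SE 0.13), edgeR adjusted p = 0.00717. G6pdx and Pgd kept their calls with each single library left out, at -0.99 to -0.86 and -1.08 to -0.93. Pgls, whose lactonase acts between them, had 101, 103 and 97.6 CPM in MN1, against 100.4, 97.6 and 88.3 CPM in MN1pQdel, and did not pass (log2 fold change 0.06, SE 0.10, edgeR adjusted p = 0.65). The retrogene G6pd2, a near copy of G6pdx, held at most 0.031% of the G6pdx counts in any library.

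In the non-oxidative arm the transaldolase gene was lower and its partners did not pass. Taldo1 (chromosome 7, 141392199 to 141402968, plus strand) stood at 329, 312 and 284 CPM in MN1, 711, 469.9 and 598 CPM in MN1pQdel and 703 CPM in noTD. Every MN1 library was below every other library, and MN1pQdel replicate 2 was the lowest of its group. The log2 fold change was -0.95 (SE 0.17), edgeR adjusted p = 0.0174. Leaving out each library in turn gave -1.08 to -0.79, with a call in 2 of 6 fits, with edgeR adjusted p up to 0.0761. Tkt, the transketolase gene, stood at 1168 ± 89.2 and 1355 ± 185 CPM (SD, n = 3 each, log2 fold change -0.22, SE 0.14, edgeR adjusted p = 0.27). Rpia, the ribose-5-phosphate isomerase gene, differed by -0.06 (SE 0.14) (edgeR adjusted p = 0.775), and its sign turned to 0.13 with library totals alone and to 0.09 without MN1pQdel replicate 2. Neutrophil markers were lower in MN1 as well, like the 3 called pentose phosphate genes and Pfkfb4 and Hk3 described next. So were most eosinophil, basophil, mast cell and monocyte markers, as given above. Within MN1pQdel the neutrophil sums were 36844, 30010 and 26523 CPM in replicates 1 to 3. Pgd had the same order there, and G6pdx, Taldo1, Pfkfb4 and Hk3 did not. In bulk RNA, fewer cells of a type and less RNA per cell cannot be told apart, and the part of these cell types in the results was not tested.

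For these 3 genes, which were lower together, the 250 bases before the first listed RefSeq start (GRCm38.p6) are shown, read towards the gene. The windows lie at chrX:74428881-74429130 (minus strand), chr4:149166706-149166955 (minus strand) and chr7:141391910-141392159 (plus strand). The gene spans given above reach 74429194 for G6pdx and 149166771 for Pgd, on the start side of these minus strand genes. The whole G6pdx window and the part of the Pgd window nearest the RefSeq start therefore lie inside the gene span. The Taldo1 window lies outside its span. Each window belongs to 1 listed start and need not be the promoter in use. Capitals mark 2 motifs searched on both strands, the antioxidant response element core TGACNNNGC and the CCAAT box CCAAT, the latter chosen after the sequences were seen.
G6pdx: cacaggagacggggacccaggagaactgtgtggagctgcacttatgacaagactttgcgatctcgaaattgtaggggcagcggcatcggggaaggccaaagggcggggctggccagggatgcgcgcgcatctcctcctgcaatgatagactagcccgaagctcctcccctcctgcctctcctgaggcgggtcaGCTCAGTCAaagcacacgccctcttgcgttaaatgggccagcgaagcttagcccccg
Pgd: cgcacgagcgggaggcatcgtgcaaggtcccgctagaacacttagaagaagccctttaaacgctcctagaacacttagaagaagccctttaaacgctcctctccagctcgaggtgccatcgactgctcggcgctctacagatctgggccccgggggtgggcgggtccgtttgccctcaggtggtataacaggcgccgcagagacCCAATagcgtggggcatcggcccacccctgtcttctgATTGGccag
Taldo1: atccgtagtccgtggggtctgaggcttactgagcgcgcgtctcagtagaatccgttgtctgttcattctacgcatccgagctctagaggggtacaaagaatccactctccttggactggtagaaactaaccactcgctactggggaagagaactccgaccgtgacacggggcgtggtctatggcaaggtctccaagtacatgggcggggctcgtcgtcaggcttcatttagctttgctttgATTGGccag
The antioxidant core occurred in the G6pdx window, 57 bases before the listed RefSeq start and inside the gene span, and in 10.1% of 27025 RefSeq genes with a window of this length. CCAAT occurred 2 times in the Pgd window, both inside the gene span, 1 time in the Taldo1 window and in 34.5% of all genes. The Pgd and Taldo1 windows end in the same 11 bases, TGATTGGCCAG, directly at the listed RefSeq start, which for Pgd lies inside the gene span. The E-box CACGTG, the hypoxia response core ACGTG (which lies inside the E-box) and the C/EBP pattern TTGCNNAA were not in these 3 windows. Of the 38 members found in the RefSeq table, 11 held ACGTG, against 16.6% of all genes, 3 held CACGTG (6.05% of all) and 4 held TTGCNNAA (9.55% of all). A match is a description of letters, not a bound site.

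Of the paired regulators of fructose-2,6-bisphosphate, the activator of phosphofructokinase, Pfkfb4 was lower in MN1 and Pfkfb3 did not pass. Pfkfb4 (chromosome 9, 108991778 to 109032228, plus strand) stood at 20.6, 19.4 and 21.5 CPM in MN1, 63.5, 64.6 and 63.7 CPM in MN1pQdel and 82.5 CPM in noTD. Each group kept a tight range, and noTD was the highest library. The fold change, -1.65 (SE 0.10) on the log2 scale or 3.14-fold lower in MN1, had an edgeR adjusted p of 0.00357, and the call held in 6 of 6 fits that each left out 1 library (-1.68 to -1.62). Pfkfb3 stood at 63.1, 71.8 and 71.9 CPM in MN1, 67.97, 93.0 and 81.5 CPM in MN1pQdel and 73.4 CPM in noTD. Its groups overlapped, and it did not pass (-0.24, SE 0.14, edgeR adjusted p = 0.236). Per transcript length, Pfkfb4 made up 17.0%, 14.5% and 15.8% of the pair in MN1, 37.0%, 30.3% and 32.9% in MN1pQdel and 41.3% in noTD. The log2 ratio of Pfkfb4 to Pfkfb3, which does not depend on library scaling, differed by -1.42 (MN1 minus MN1pQdel), without overlap. The exact two-sided permutation test over libraries gave p = 0.1, the smallest p that 3 against 3 allows, and 0.175 adjusted over the 7 isoenzyme ratios examined.

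**Figure D2:**
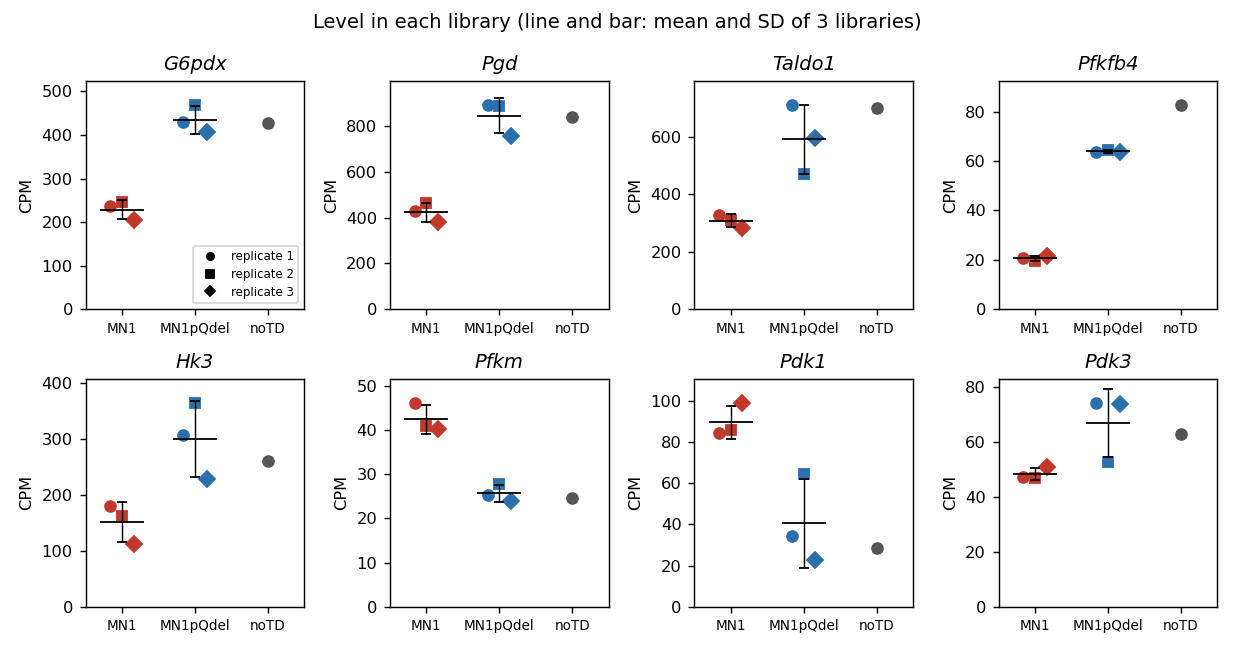
Level in CPM (y axis, from 0) of 8 enzyme genes in each library of the MN1, MN1pQdel and noTD groups (x axis), with marker shape for the replicate number and a line and bar for the mean and SD of 3 libraries. G6pdx, Pgd, Taldo1, Pfkfb4 and Hk3 are lower in all 3 MN1 libraries than in every other library, and Pfkm and Pdk1 are higher. MN1pQdel replicate 2 lies nearest to MN1 for Taldo1, Pfkm, Pdk1 and Pdk3.

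Among the hexokinases, which trap glucose in the cell, Hk3 was lower in MN1 and the share of Hk2 was larger. Hk3 (chromosome 13, 55005985 to 55021385, minus strand), the form typical of myeloid cells, stood at 180.4, 163 and 112 CPM in MN1, 306, 364 and 229 CPM in MN1pQdel and 261 CPM in noTD. MN1 replicate 3 was the lowest library, and the groups did not overlap. The log2 fold change was -0.99 (SE 0.24), edgeR adjusted p = 0.0352, and the call held in 2 of 6 fits that each left out 1 library (-1.15 to -0.81, edgeR adjusted p up to 0.12). It did not pass with library totals alone (edgeR adjusted p = 0.0571) or without the replicate 2 pair (edgeR adjusted p = 0.0676). Hk1, the widespread form, stood at 385, 308 and 372 CPM in MN1, 515, 403 and 567 CPM in MN1pQdel and 526 CPM in noTD. All MN1 values were below all MN1pQdel values. Its edgeR adjusted p was 0.0798 (log2 fold change -0.49, SE 0.16) and 0.0243 with the replicate block. Hk2, the inducible form, stood at 138, 151 and 165 CPM in MN1, 153, 161 and 165 CPM in MN1pQdel and 156 CPM in noTD, with overlapping groups (-0.09, SE 0.10, edgeR adjusted p = 0.548, and a log2 fold change of 0.11 with library totals alone). Per transcript length, Hk2 made up 17.0%, 21.0% and 22.5% of the hexokinase level in MN1 and 13.3%, 14.5% and 14.8% in MN1pQdel, without overlap, with 14.2% in noTD. Hk1 was the leading hexokinase in 6 of the 7 libraries and Hk3 led in MN1pQdel replicate 2, with 45.4% against 40.1%. The log2 ratios Hk2/Hk1 and Hk3/Hk1 differed by 0.39 and -0.51 between the groups, with overlap (exact permutation p = 0.2 and 0.4, adjusted 0.28 and 0.4). Within the 3 same-numbered pairs the differences were 0.28, 0.30 and 0.60 for Hk2/Hk1 and -0.34, -0.77 and -0.43 for Hk3/Hk1, each of 1 sign. The exact paired permutation p was 0.25 for both, the smallest that 3 pairs allow.

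The phosphofructokinases, which catalyse the committed step of glycolysis, held the single member called higher. Pfkm (chromosome 15, 98092589 to 98132451, plus strand), the muscle-type subunit, stood at 46.1, 40.9 and 40.2 CPM in MN1, 25.4, 27.7 and 23.9 CPM in MN1pQdel and 24.6 CPM in noTD. Every MN1 library was above every other library. The log2 fold change was 0.71 (SE 0.12), edgeR adjusted p = 0.0156, and leaving out each library in turn gave 0.64 to 0.78, with a call in 1 of 6 fits, with edgeR adjusted p up to 0.0708. Pfkm made up 12.6%, 11.7% and 10.1% of the family per transcript length in MN1 and 7.56%, 8.51% and 7.76% in MN1pQdel. The liver-type Pfkl (0.28, SE 0.12, edgeR adjusted p = 0.15) and the platelet-type Pfkp (0.01, SE 0.11, edgeR adjusted p = 0.963) made up the rest and did not pass. The sign of Pfkp turned with a filter at 5 CPM and without MN1 replicate 3 or MN1pQdel replicate 2.

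**Figure D3:**
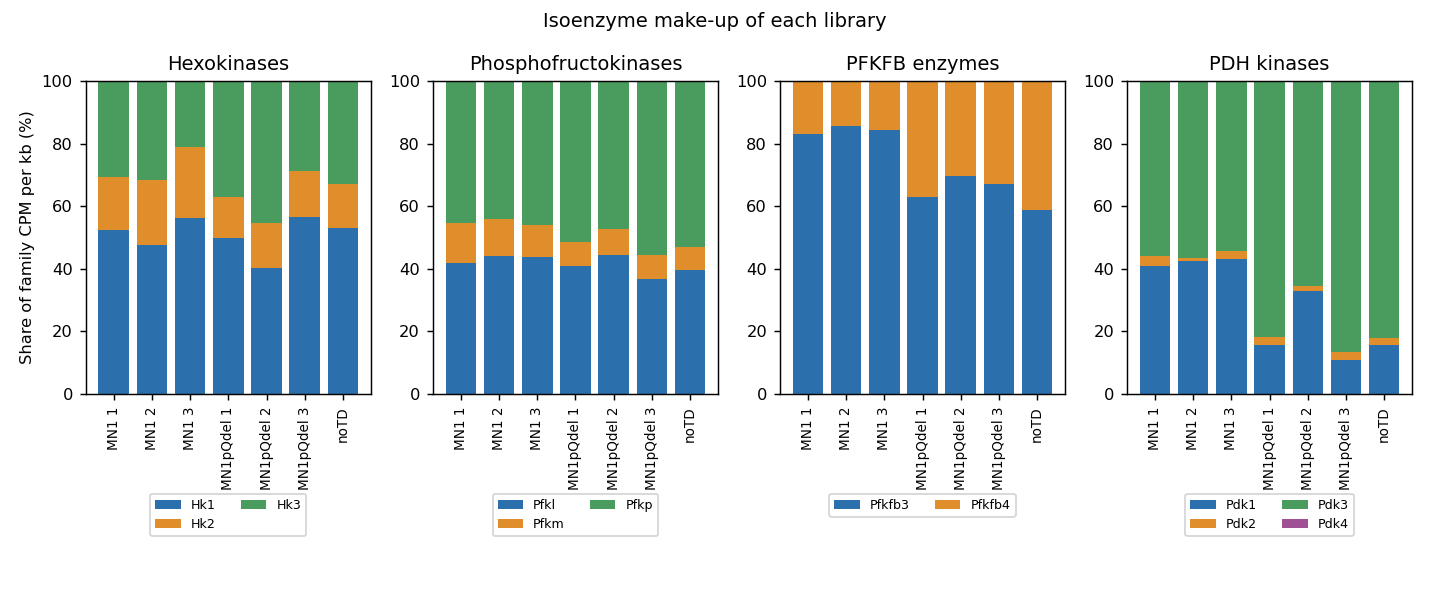
Share of each isoenzyme in the CPM per kilobase of its family (y axis, percent) in each of the 7 libraries (x axis), for the hexokinases, phosphofructokinases, PFKFB enzymes and pyruvate dehydrogenase kinases. The Pfkfb4 segment is smaller and the Pdk1 segment larger in the 3 MN1 libraries than in every other library, and Pdk4 is too low to be seen.

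Of the other 4 upper and 6 lower glycolysis genes, 0 passed with edgeR and DESeq2 called 2 higher. At an unadjusted p under 0.05 there were 3, all with a higher mean in MN1. The triose phosphate isomerase gene Tpi1 stood at 608, 611 and 716 CPM in MN1, 459.6, 531 and 374 CPM in MN1pQdel and 437 CPM in noTD, without overlap (log2 fold change 0.49, SE 0.15, edgeR adjusted p = 0.0669). It passed with DESeq2 (adjusted p = 0.0358), with library totals alone (edgeR adjusted p = 0.0408) and without MN1pQdel replicate 2 (edgeR adjusted p = 0.0141). Tpi1 passed in 1 of 6 fits that each left out 1 library, with edgeR adjusted p up to 0.185. Pgam1, the phosphoglycerate mutase gene, stood at 989, 1037 and 1024 CPM in MN1, 817, 921 and 608 CPM in MN1pQdel and 706 CPM in noTD, with MN1 above and without overlap (0.37, SE 0.16, edgeR adjusted p = 0.144). It passed without MN1pQdel replicate 2 (edgeR adjusted p = 0.0336), in 1 of 6 fits that each left out 1 library (edgeR adjusted p up to 0.303). Pgk1, the phosphoglycerate kinase gene, likewise lay above without overlap (0.35, SE 0.13, edgeR adjusted p = 0.0908). It passed with library totals alone (edgeR adjusted p = 0.0375) and without the replicate 2 pair (edgeR adjusted p = 0.0443). Of the 6 fits that each left out 1 library, it passed in 0. Gapdh, the most abundant member per transcript length, stood at 2952 ± 66.9 and 2686 ± 251 CPM (SD, n = 3 each, log2 fold change 0.12, SE 0.12, edgeR adjusted p = 0.452). The pyruvate kinase gene Pkm (-0.18, SE 0.11) and the aldolase gene Aldoa (-0.17, SE 0.12) lay lower in all MN1 libraries and did not pass (edgeR adjusted p = 0.287 and 0.315), and both signs turned with library totals alone. The enolase gene Eno1 differed by -0.02 (SE 0.13), with a sign that turned in several settings (edgeR adjusted p = 0.94). Gpi1, the glucose-6-phosphate isomerase gene, did not pass (-0.28, SE 0.15, edgeR adjusted p = 0.22). Aldoc, the minor aldolase, had 44.6, 23.8 and 45.6 CPM in MN1, against 23.7, 24.7 and 18.7 CPM in MN1pQdel, so MN1 replicate 2 lay inside the MN1pQdel range (0.75, SE 0.27, edgeR adjusted p = 0.0907). It passed with DESeq2 (adjusted p = 0.0416) and without the replicate 2 pair (edgeR adjusted p = 0.00756). Eno3, the muscle enolase, stayed at 3.06 to 4.06 CPM in all libraries. Several of these genes have processed copies in the genome. Of the copies with a row in the table, Eno1b held at most 0.0233% of the Eno1 counts, Aldoart1 at most 0.0146% of the Aldoa counts and Pgk1-rs7 had 0 counts. Reads shared with other copies were not tested.

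The RNA for lactate dehydrogenase came almost wholly from Ldha in every library. Ldha stood at 1428, 1402 and 1563 CPM in MN1, 1355, 1178 and 1191 CPM in MN1pQdel and 1303 CPM in noTD, with MN1 above and without overlap, and did not pass (0.23, SE 0.11, edgeR adjusted p = 0.19). It passed with library totals alone (edgeR adjusted p = 0.0397) and in 0 of 6 fits that each left out 1 library. Ldhb stood at 1.83, 2.13 and 1.29 CPM in MN1, 3.12, 4.85 and 2.76 CPM in MN1pQdel and 2.58 CPM in noTD, with MN1 below and without overlap (-1.04, SE 0.33, edgeR adjusted p = 0.0722, and 0.0327 with the replicate block). These levels rest on 61 to 237 counts per library. The log2 ratio of Ldha to Ldhb was higher in MN1 by 1.26, without overlap (exact permutation p = 0.1, adjusted 0.175). As a share per transcript length, Ldhb was 0.156%, 0.185% and 0.101% in MN1 and 0.280%, 0.499% and 0.281% in MN1pQdel, so no change of the leading subunit was seen.

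The pyruvate dehydrogenase kinases, which hold pyruvate back from the TCA cycle, differed in the balance of Pdk1 and Pdk3 without overlap between the groups, though no single kinase gene passed with edgeR. Pdk1 stood at 84.2, 85.7 and 98.9 CPM in MN1, 34.5, 64.4 and 22.7 CPM in MN1pQdel and 28.7 CPM in noTD. The MN1 libraries lay close together above all others, and MN1pQdel replicate 2 lay well above the rest of its group. Pdk1 did not pass (log2 fold change 1.13, SE 0.35, edgeR adjusted p = 0.0663, and 0.0511 with the replicate block). Without MN1pQdel replicate 2 it passed, at 1.64 (edgeR adjusted p = 0.00205), as it did with DESeq2 (adjusted p = 0.0131). That was the only pass in the 6 fits that each left out 1 library (edgeR adjusted p up to 0.208). Pdk3 stood at 47.1, 46.7 and 50.7 CPM in MN1, 74.0, 52.5 and 73.6 CPM in MN1pQdel and 62.7 CPM in noTD, in the opposite order to Pdk1 and without overlap. Its edgeR adjusted p was 0.0751 (log2 fold change -0.48, SE 0.16), 0.0486 with the replicate block and 0.00394 without MN1pQdel replicate 2. Pdk3 passed in 1 of 6 fits that each left out 1 library, with edgeR adjusted p up to 0.227. Pdk2 stayed low, at 2.73, 0.926 and 2.59 CPM in MN1, 2.33, 1.47 and 2.26 CPM in MN1pQdel and 1.89 CPM in noTD (0.03, SE 0.45, edgeR adjusted p = 0.968), and its sign turned with the block, at -0.08, and when MN1 replicate 1, MN1 replicate 3 or MN1pQdel replicate 2 was left out. Pdk4 had 0 to 1 counts in each MN1 library, 1 to 4 in each MN1pQdel library and 1 in noTD, too few to compare. Per transcript length Pdk1 made up 40.8%, 42.4% and 43.2% of the kinases in MN1, 15.6%, 32.8% and 10.9% in MN1pQdel and 15.4% in noTD. On that scale Pdk3 led in all 7 libraries. The log2 ratio of Pdk1 to Pdk3 counts stood at 0.84, 0.88 and 0.96 in MN1, at -1.10, 0.29 and -1.70 in MN1pQdel and at -1.12 in noTD, a difference of 1.73 between the groups (exact permutation p = 0.1, adjusted 0.175). The ratio of Pdk1 to Pdk2 overlapped between the groups (difference 1.35 on the log2 scale, exact permutation p = 0.3, adjusted 0.35), and was higher in MN1 within all 3 pairs, by 1.05, 1.08 and 1.93 (exact paired permutation p = 0.25).

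Genes of the pyruvate dehydrogenase complex and the TCA cycle held 8 members, of which 0 passed with edgeR or DESeq2 and 2, Pdha1 and Fh1, had an unadjusted p under 0.05. Pdha1, the complex's catalytic subunit, stood at 179, 225 and 189.7 CPM in MN1, 125, 171 and 106 CPM in MN1pQdel and 106 CPM in noTD, without overlap between the transduced groups. In each group replicate 2 was the highest library. The log2 fold change was 0.55 (SE 0.19), with an edgeR adjusted p of 0.0855, and 0.0236 with the replicate block. Fh1, the fumarase gene, stood at 105, 115 and 99.5 CPM in MN1, 71.9, 92.8 and 65.6 CPM in MN1pQdel and 66.7 CPM in noTD, again with replicate 2 highest in both groups (0.46, SE 0.15, edgeR adjusted p = 0.0723, 0.0224 with the block). Idh3a of isocitrate dehydrogenase (0.36, SE 0.16) and Suclg1 of succinyl-CoA ligase (0.36, SE 0.15) overlapped between the groups and passed with the block (edgeR adjusted p = 0.0249 and 0.0286) but not without it (0.142 and 0.134). These 4 genes passed without MN1pQdel replicate 2 as well, with edgeR adjusted p from 0.0055 to 0.0206. Each passed in only 1 of the 6 fits that left out 1 library. The highest edgeR adjusted p there was 0.237 for Pdha1, 0.211 for Fh1, 0.367 for Idh3a and 0.338 for Suclg1. The citrate synthase gene Cs (-0.07, SE 0.09), Ogdh of the oxoglutarate dehydrogenase complex (-0.10, SE 0.11) and the malate dehydrogenase genes Mdh1 (0.18, SE 0.09) and Mdh2 (0.08, SE 0.11) did not pass (edgeR adjusted p from 0.196 to 0.602), and Cs and Ogdh changed sign with library totals alone. Cs, Aldoc, Pgls and Fbp1 are given by library here after their values were seen. Cs had narrow ranges, at 337, 338 and 322 CPM in MN1 and 345, 348 and 347 CPM in MN1pQdel. Fbp1, a gluconeogenic phosphatase, was low, at 3.90, 3.17 and 2.69 CPM in MN1, 0.895, 2.88 and 0.497 CPM in MN1pQdel and 1.26 CPM in noTD, and overlapped through MN1pQdel replicate 2 (1.18, SE 0.62, edgeR adjusted p = 0.204). Without that library the log2 fold change was 2.20 (edgeR adjusted p = 0.00577). Fbp1 passed in 1 of 6 fits that each left out 1 library, with edgeR adjusted p up to 0.437.

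MN1pQdel replicate 2 was the MN1pQdel library nearest to the MN1 mean in 16 of 38 members (42.1%), against 62.8% of all 14808 genes tested, so this is not particular to these members. The called members Taldo1 and Pfkm were among the 16, as were Pdk1, Pdk3, Pdha1, Fh1 and Fbp1, which were not called. This library was not the nearest for the other called members, G6pdx, Pgd, Pfkfb4 and Hk3, and its Hk3 level was the highest of all libraries. Its mast cell and eosinophil markers were low, as given above, and their part in these members' values was not tested.

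Measured against the single untransduced library, MN1pQdel cells were close and MN1 cells further away. No test was made here, since noTD has 1 library. A member counted as past 2-fold when the log2 CPM difference was at least 1 and noTD lay outside the group's range. In MN1, 4 members were past 2-fold (25.5% of all tested genes were, 14.8% higher and 10.8% lower in noTD). Pfkfb4 and Taldo1 were higher in noTD, by 2.01 and 1.19 on the log2 scale, and Pdk1 and Fbp1 were lower, at -1.63 and -1.32. Pgd and G6pdx fell just short, at 0.99 and 0.91. In MN1pQdel 0 of 38 members were past 2-fold, where 3.84% of all genes were (2.48% higher and 1.36% lower in noTD). There the differences (noTD minus MN1pQdel) were -0.00394 for Pgd and -0.0205 for G6pdx, 0.37 for Pfkfb4 and -0.36 for Pdk1. The noTD library lay above the MN1 range in 13 of 38 members, below it in 18 and inside it in 7, and inside the MN1pQdel range in 30. The shares of all genes inside or outside these ranges were not counted, so these counts are a description. The MN1pQdel range also includes replicate 2, which stood apart from its group. The median absolute log2 difference over the members was 0.333 from MN1, against 0.545 over all genes, and 0.102 from MN1pQdel, against 0.211. Both comparisons share the 1 noTD library.

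**Figure D4:**
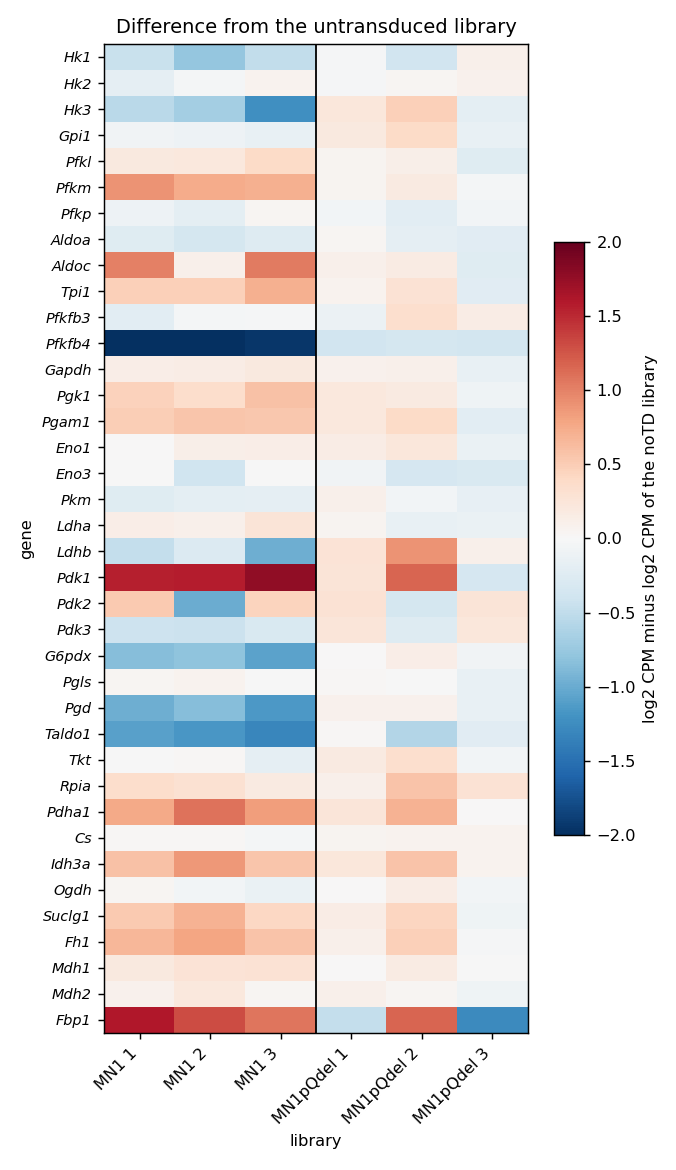
Colour scale of the log2 CPM of each MN1 and MN1pQdel library (x axis) minus that of the noTD library for the 38 tested enzyme genes (y axis). In the 3 MN1 columns Pfkfb4, Taldo1, Pgd and G6pdx are blue (lower than noTD) and Pdk1, Fbp1, Pfkm and Pdha1 are red (higher), while most cells of the MN1pQdel columns are pale, apart from Fbp1, Ldhb, Pdk1, Pdha1 and Taldo1 in replicate 2 and Fbp1 in replicate 3.

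Other genes were read from 7 lists, of these pathways and of hypoxia-inducible factor, MYC and nucleotide synthesis, and cell division genes. Together the lists held 136 tested genes, of which 7 were higher and 10 lower in MN1. These are 5.15% and 7.35%, below the 6.08% and 11.1% of all genes tested. The shares cover all 7 lists together and need not hold for the lists of these pathways alone. In glycolysis and glucose transport 1 of 25 was higher and 4 lower. The monocarboxylate transporter gene Slc16a1, which carries lactate, had a mean of 184 ± 38.4 CPM in MN1, against 77.4 ± 37.5 CPM in MN1pQdel (SD, n = 3 each), which is 1.24 (SE 0.33, edgeR adjusted p = 0.0478) on the log2 scale. Adpgk, the ADP-dependent glucokinase gene, was lower (-1.24, SE 0.17, edgeR adjusted p = 0.00911), as was Pklr, which stayed at or below 0.525 CPM in the group means (-2.07, SE 0.55, edgeR adjusted p = 0.0474). In the NADPH and pentose phosphate list 1 of 15 was higher, Prps2 for phosphoribosyl pyrophosphate synthesis (0.96, SE 0.20, edgeR adjusted p = 0.0238), and 1 lower, the NAD kinase gene Nadk, whose product makes NADP (-1.01, SE 0.15, edgeR adjusted p = 0.00985). Both subunits of the mitochondrial pyruvate carrier were lower, Mpc1 (-0.58, SE 0.11, edgeR adjusted p = 0.0206) and Mpc2 (-0.81, SE 0.14, edgeR adjusted p = 0.0142), the only calls among 10 genes of pyruvate entry in this fit. Among 19 other TCA genes Me3 (1.41, SE 0.27, edgeR adjusted p = 0.0194) and Got1 (0.57, SE 0.12, edgeR adjusted p = 0.0249) were higher and Glud1 (-0.49, SE 0.12, edgeR adjusted p = 0.0361) was lower.

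Of 21 tested genes of the hypoxia-inducible factor (HIF) pathway and its textbook targets outside glycolysis, 0 were higher with edgeR (2 at an unadjusted p under 0.05, 1 with DESeq2) and 2 were lower (5 at an unadjusted p under 0.05, 2 with DESeq2), Ero1l (-1.01, SE 0.27, edgeR adjusted p = 0.0482) and Mxi1 (-0.81, SE 0.11, edgeR adjusted p = 0.00861). Their median log2 fold change was -0.016. Of 26 MYC and nucleotide synthesis genes 3 were higher, Mycl (3.50, SE 0.76, edgeR adjusted p = 0.0275, at 1.78 ± 0.291 and 0.153 ± 0.188 CPM), Paics (0.80, SE 0.19, edgeR adjusted p = 0.0353) and Cad (0.67, SE 0.15, edgeR adjusted p = 0.0318), with a median of 0.639. With the replicate block 18 of the 26 were higher, against 13.7% of all genes. This list, like the others, was chosen with earlier results of these data known, so these shares are a description and not a test. Of 20 cell division genes 0 passed with edgeR or DESeq2, 4 were above in MN1 at an unadjusted p under 0.05, and 6 were higher with the block, against the same 13.7%. Mki67, the most abundant, differed by -0.29 (SE 0.13, edgeR adjusted p = 0.151). The summed level of the cell division genes was 5284 to 5967 CPM in MN1 and 4136 to 5865 CPM in MN1pQdel, where replicate 2 was the highest library. The part of cell division in the enzyme levels was not tested.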

How the data were processed

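Messenger RNA was measured in 7 libraries, 3 MN1, 3 MN1pQdel and 1 noTD, grouped by their titles. The deposited values are estimated counts, 1 row per gene symbol. The submitters' processing notes name kallisto, DESeq2 and the build GRCm38. Tool versions, transcript index and strand setting: not given in the sources used here. Of its values 32.5% were not whole (tolerance 1e-06), and 26 rows had symbols turned into dates; these stayed in the tests. Counts were rounded, filtered with filterByExpr and scaled by TMM, and MN1 was tested against MN1pQdel with edgeR 4.0.16 (R 4.3.3, quasi-likelihood, group only, Benjamini-Hochberg over 14808 genes, threshold 0.05). A fold change is log2 of MN1 over MN1pQdel with its standard error. The noTD library was compared by log2 CPM (prior count 2). Shares within a family use CPM per kilobase of the median protein-coding transcript in GENCODE M21, as a stand-in for the lengths used upstream. Isoenzyme ratios were tested by exact two-sided permutation over libraries.

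The members and gene lists were chosen with earlier results of these data known. Values in every library are given for the Hk, Pfkfb, Pdk and Ldh families, for every member that passed and for up to 8 members whose groups did not overlap; from each list up to 3 passing genes with the largest change are named. Replicates differed by far more than sampling noise (chi-square per gene 43.3 to 352). Deviations from group means correlated at 0.367, 0.258 and 0.320 between libraries of the same number and from -0.282 to -0.0599 between others. Such deviations cancel within a group, so the negative values follow from the positive ones and are no separate support. Numbers are treated as pairing on this ground, a reading of the data that no label states. The block fit then uses the same values from which the pairing was read. Alternatives were DESeq2 1.42.0, other scalings and filters, all 7 libraries in 1 fit, the replicate block and leaving out libraries. The fit was tested on simulated data.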

Additional observations from a re-analysis of the deposited data

How the results depend on the processing

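The 6 member calls (1 higher, 5 lower in MN1) were all among the calls with the replicate block (5 higher, 8 lower), with DESeq2 (4 and 6) and without MN1pQdel replicate 2 (9 and 7). With library totals alone (5 and 4) and without the replicate 2 pair (10 and 6) 5 of them were. Leaving out each library in turn gave 0 to 9 higher and 3 to 7 lower, the highest counts without MN1pQdel replicate 2. Over all genes, 901 higher and 1643 lower became 2022 and 2523 with the replicate block and 2531 and 2545 without the replicate 2 pair. Higher calls were 1847 with library totals alone, 1812 with DESeq2 and 592 with a mean of at least 5 CPM. Single libraries left out gave 96 to 3068 higher and 405 to 3142 lower. Of the pathway list genes, 7 higher became 21 with library totals alone, 36 with the block, 44 without the pair and 25 with DESeq2, and 0 to 54 with single libraries left out, while 10 lower became 5 with library totals alone and 2 to 18 with single libraries left out. Members past 2-fold higher in noTD than in MN1 numbered 2, and 1 with library totals alone, with 2 to 3 higher and 2 to 3 lower when a library was left out.

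Library totals alone moved the median of all genes from -0.0105 to 0.192 (log2) and turned the sign of Hk2 (0.11), Aldoa (0.031), Eno1 (0.18), Pkm (0.0243), Rpia (0.13), Cs (0.13) and Ogdh (0.10). Pfkp turned to -0.0019 with the 5 CPM filter. Eno1 turned to 0.0735 and Rpia to 0.0877 without the pair, Eno1 to 0.0151 with DESeq2 and Pdk2 to -0.076 with the block. With single libraries left out Pfkp ran from -0.0536 to 0.0611, Eno1 from -0.11 to 0.0731, Pdk2 from -0.22 to 0.38 and Rpia from -0.15 to 0.0857. The cause was not tested. The 7 isoenzyme ratios kept their direction in every alternative run on them. With 3 libraries a group, exact permutation cannot go below p = 0.10, and Pdk2, Pdk4, Ldhb and Fbp1 rest on few counts.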
